A study of Mus musculus with 15 samples.

Results

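The genes described are 49 genes of DNA replication and S phase, taken by symbol from a written list. Its rule used no measured value, but it was chosen with earlier results of these data known. All 49 were rows of the count table, among 53546 symbols. The data were bulk RNA-seq counts of CD206-positive macrophages sorted from the dura mater, the outer membrane around the brain. The mice were untreated C57BL/6J animals kept in a specific-pathogen-free facility. Every mouse of every age carried the Cx3cr1GFP/wt genotype, with GFP in place of 1 Cx3cr1 allele, so there was no group without it. The groups were 5 ages with 3 libraries each, 15 libraries in all: a stage before birth, E14.5, and 4 postnatal ages, which were P3, P10, P21 and P56 (numbers in days). By the labels, P56 was sequenced under a project of its own, so for P56 the age and the project cannot be told apart. Each age had 3 to 5 individual mice according to the series design, which does not tie a library to a mouse, so the p-values measure the spread between libraries.

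Cells copy their DNA once per division. In G1, the origin recognition complex with Cdc6 and Cdt1 loads the MCM helicase onto DNA, a step called licensing. In S phase, Cdc45 and the GINS complex turn that helicase on, primase and the DNA polymerases copy the strands behind it, and PCNA, RPA, ligase and the enzymes of nucleotide supply serve the moving fork. Many of these genes are switched on by E2F transcription factors as cells enter S phase, and their transcripts are widely used as a sign of dividing cells. Dural macrophages are resident macrophages of the meninges that are seeded before birth and can divide in the tissue.

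Library totals lay between 17550170 and 30614583 counts, with 10 or more counts in 11254 to 13654 genes. None of 8 macrophage genes was at 0 in any library. That alone does not test identity, as the fibroblast gene Col1a1 was never at 0 either. Mrc1, which encodes CD206, was at no less than 1420 CPM of the total in each of the 15 libraries. Several others of the 8 differed by age. The embryonic libraries held at most 22.5 of Cbr2 and 63.9 of Cd163, where no P21 library was below 2520 and 668. Lyve1 and Cx3cr1 went the other way, with at least 1370 and 670 in the embryo, while P21 reached only 988 and 483. Adgre1 and Pf4 were higher at P21 without overlap, and Mrc1 and Csf1r overlapped between these ages. P21 replicate 2 had the fewest genes with 10 counts (11254), and 9 of the 49 genes were under 1 CPM there, against 1 and 0 in the other P21 libraries. The main counts of calls and the tally of steps are given with and without it. All 49 genes passed the filter on low counts, and each reached the minimum in at least 3 libraries other than those of E14.5, so the pass did not rest on the age at which most of them were highest.

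The replication genes were at their highest level in the embryo for 46 of 49 genes and were lower at each later age as a group. Their summed level as CPM, counts scaled to a common library total (CPM of the total), was 6370, 5993 and 6244 CPM (E14.5), 3618, 3740 and 3808 (P3), 2451, 2128 and 2206 (P10), 1489, 1616 and 1957 (P21) and 937, 994 and 994 (P56), in replicate order. No library of one age overlapped with a library of the next. The mean sum was 6202 ± 192 (SD, n = 3) at E14.5 and 1688 ± 242 at P21, and it stood at 60.0% (P3), 36.5% (P10), 27.2% (P21) and 15.7% (P56) of the E14.5 mean. The level of single genes below is in CPM scaled by TMM, a factor that aligns the bulk of genes between libraries. On that scale the same sum was at 61.9% (P3), 40.3% (P10), 33.7% (P21) and 21.5% (P56). In these bulk samples, fewer cells of a type and less RNA per cell cannot be told apart.

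**Figure D1:**
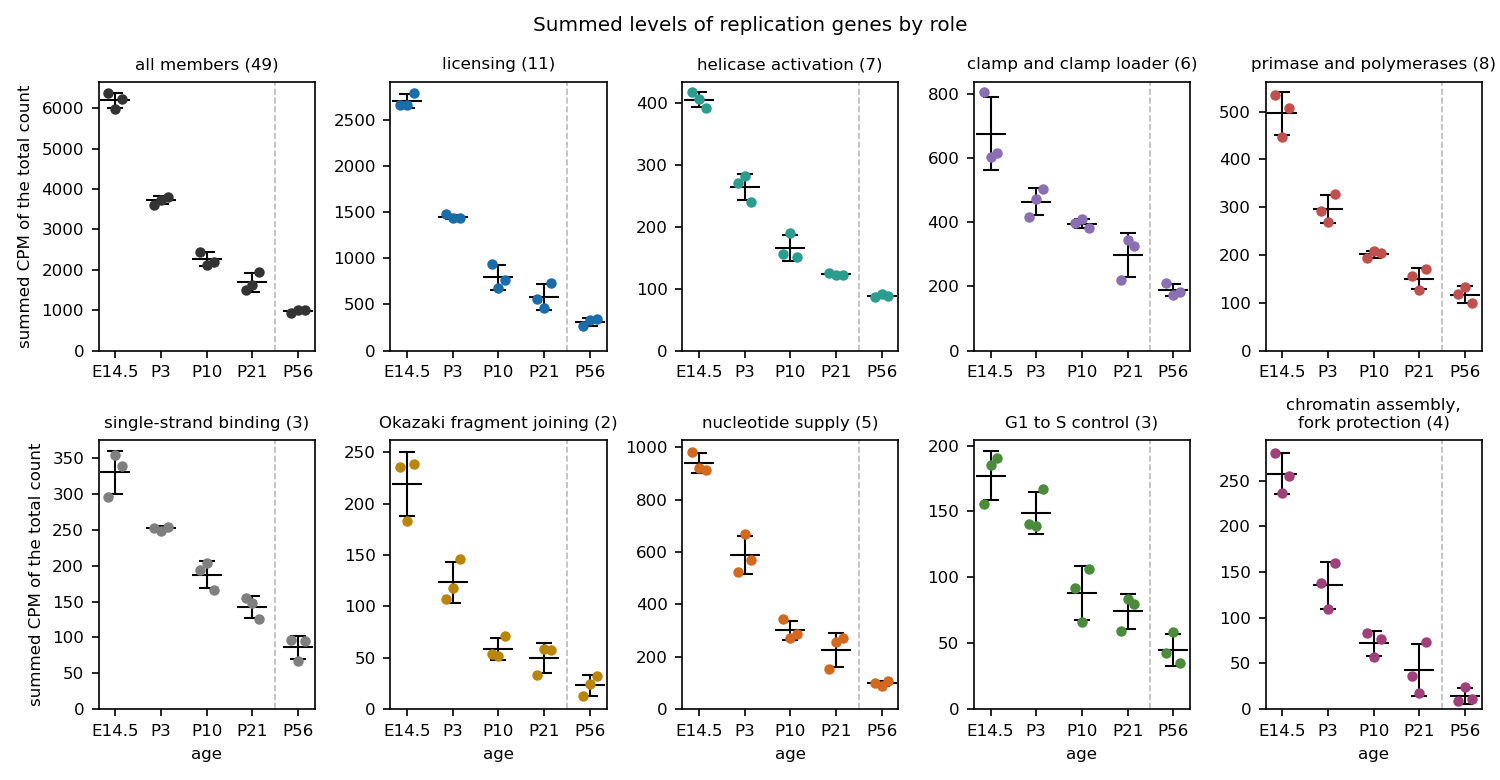
Summed level of the 49 replication genes and of their 9 roles at each age, in CPM of the total (vertical axes, which start at 0), with points for libraries and bars for mean ± SD of 3 libraries; the dashed line sets off P56, which belongs to another sequencing project. The sum over all 49 genes has means of 6202 CPM (E14.5), 1688 (P21) and 975 (P56).

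A gene was called when the adjusted p of edgeR's quasi-likelihood test was under 0.05, with Benjamini-Hochberg adjustment over all 14683 genes tested. From E14.5 to P21, 28 of the 49 genes fell and none rose, where 4.37% of all genes tested fell. The median log2 change was -1.76 for the 49 and -0.01 for all genes. In 44 of the 49, every P21 library was below every E14.5 library, as it was for 17.4% of all genes. Among the 12 libraries of E14.5 to P21, an F-test for any difference called 25 of the 49, beside 12.3% of 14287 genes tested. All 25 had their highest mean at E14.5, as 4.14% of all genes both passed this test and were highest then. The means of 36 of the 49 were lower at each step from E14.5 to P3, P10 and P21, as were those of 9.67% of all genes. Without P21 replicate 2, the test called 27 of the 49 from E14.5 to P21 with a median of -1.65, and the F-test called 31. On all libraries, limma voom called 41 of the 49 lower from E14.5 to P21, beside 7.78% of all genes, and DESeq2 36, beside 8.38% of the 13412 genes for which it gave an adjusted p. For the F-test they called 33 and 34 (DESeq2 by its likelihood ratio test), while 2165 and 3226 of all genes were called, beside 1759 in edgeR. Of the 28 calls, 18 held without each of the 15 libraries in turn. Where a call below is said to be lost without some libraries, each was left out alone. A fit of these 2 ages alone lost Orc6, Cdc6, Mcm2, Pcna and Rfc3 (adjusted p = 0.0573 to 0.145), and with no filter on low counts Cdc6, Mcm2, Rfc3, Dut, Ccne2 and Chaf1b were lost (0.0639 to 0.155). With no scaling factor 34 of 49 fell, and the split of all genes turned from 4.37% lower and 7.81% higher to 10.2% and 5.09%, with the median of all genes at -0.32 and that of the 49 at -2.06.

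Step by step, few single genes passed. From E14.5 to P3, 2 of 49 fell, Mcm4 and Mcm5, beside 0.388% of all genes, and 33 of 49 had no overlap and were lower, beside 13.0%. The median log2 change was -0.72. From P3 to P10, 2 of 49 fell, Mcm5 and Pold1, beside 0.0613% of all genes, and 27 were lower without overlap, beside 9.35%, with a median of -0.63. From P10 to P21, edgeR called 0 of 49 beside 0.184% of all genes called lower. At an unadjusted p under 0.05 there were 3, all lower, beside 6.70% of all genes, and DESeq2 and limma voom called 0 each. The median of that step was -0.28, and 8 of 49 were lower without overlap, beside 8.92% of all genes. From P3 to P21, 10 of 49 fell, beside 0.940% of all genes, 31 were lower without overlap, beside 11.2%, and the median was -0.98. None of the 49 rose in any of the 6 comparisons. The count of 10 was 3 without P3 replicate 2 or P21 replicate 1, 4 without P3 replicate 3, 5 without P3 replicate 1 or P21 replicate 2, and 2, Mcm5 and Gins2, in a fit of these 2 ages alone. Mcm5, Gins2 and Chaf1a were called without each of the 15 libraries. The count from E14.5 to P3 was 0 without E14.5 replicate 2 or 3 or any P3 library and 1 without E14.5 replicate 1, P10 replicate 3 or P56 replicate 5 or 6. The count from P3 to P10 was 0 without P3 replicate 1 or P10 replicate 2 and 1 without any E14.5 library, P3 replicate 2 or 3 or P10 replicate 1 or 3.

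From P21 to P56, 3 of 49 fell, Mcm5, Rrm2 and Ccne2, beside 0.170% of all genes, and 14 were lower without overlap, beside 6.22%. The median was -0.69. That step joins libraries of both sequencing projects, and its age and project parts cannot be told apart. A fit of the P21 and P56 libraries alone called 0 of 47 tested, with adjusted p = 0.273 for Mcm5, 0.39 for Rrm2 and 0.511 for Ccne2. Without P56 replicate 6 the full fit called 1, Mcm5. At an unadjusted p under 0.05 there were 20 of 49 in the full fit, all lower, beside 6.30% of all genes. Orc1, the largest subunit of the origin recognition complex, had 0 counts in all 3 P56 libraries. A floor of 3 counts over that age puts Orc1 at least 474-fold lower than at E14.5 and at least 53.4-fold lower than at P21, though the difference from P21 did not pass in edgeR (adjusted p = 0.193) or limma voom (0.572) and did in DESeq2 (0.000601), and P21 itself ran from 0.049 to 8.77 CPM. Clspn, which encodes the checkpoint adaptor claspin, had 3 counts in all at P56.

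**Figure D2:**
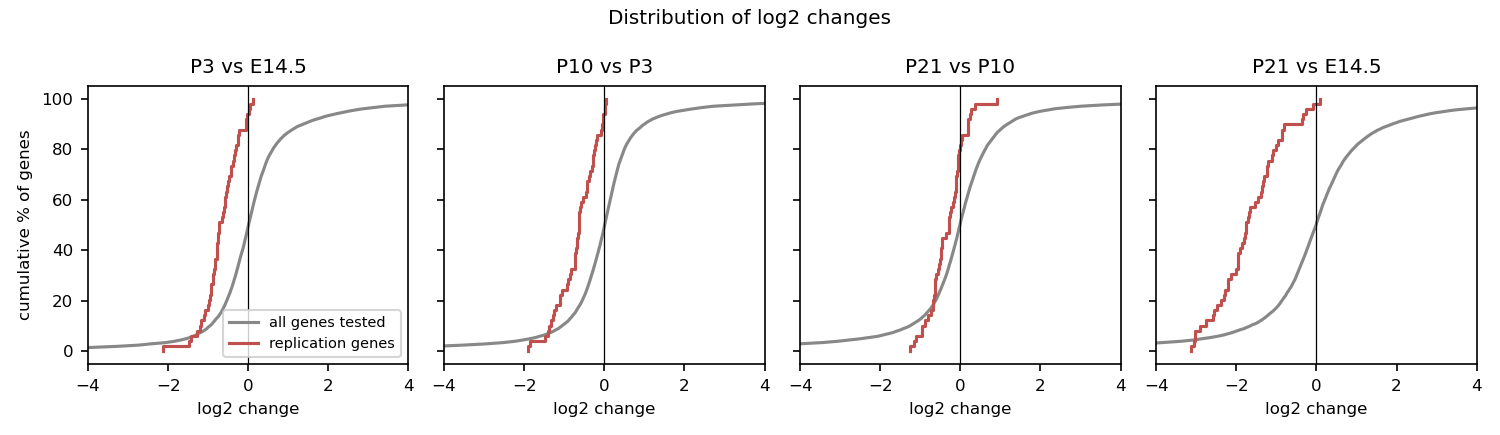
Cumulative percent of genes (vertical axis) by log2 change between ages (horizontal axis) for the 49 replication genes and for all 14683 genes tested, in 4 comparisons. The median of the 49 lies to the left of that of all genes in each panel, at -0.72 (P3 against E14.5), -0.63 (P10 against P3), -0.28 (P21 against P10) and -1.76 (P21 against E14.5). The lower tail of all genes reaches further left than the 49. From P10 to P21, 3 of the 49 were at least 2-fold lower, against 1869 of the 14683 genes, and the lowest of the 49 was at -1.26.

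The promoters of the 4 genes with the smallest p in the F-test are shown because these genes all fell from E14.5 to P21 and because E2F, which binds a short GC-rich word, is a known regulator of the family. RefSeq sequences on build GRCm38.p6 held promoters, from 250 bases before to 50 after the start of the gene, for 40 of the 49 genes (45 promoters), matched by symbol. They were searched on both strands for an E2F word, TTTCCCGC, TTTCGCGC, TTTGCCGC or TTTGGCGC, and for CCAAT, the word of the factor NF-Y, and matches that overlap were each counted. Each is written 5′ to 3′ on the strand of its gene, with every match in capitals, so a word on the other strand appears as its reverse complement (GCGGGAAA, GCGCGAAA, GCGGCAAA or GCGCCAAA, and ATTGG). The Mcm5 window lies at chr8:75109259-75109558, plus strand, and holds 2 overlapping E2F words and 3 CCAAT words. That of Pold1 (chr7:44548766-44549065, minus strand) has 1 E2F word. For Mcm6 (chr1:128359656-128359955, minus strand) there are 3 E2F words, 2 of them overlapping, and 2 CCAAT words. The Rrm1 window (chr7:102441445-102441744, plus strand) holds 2 CCAAT words.
Mcm5: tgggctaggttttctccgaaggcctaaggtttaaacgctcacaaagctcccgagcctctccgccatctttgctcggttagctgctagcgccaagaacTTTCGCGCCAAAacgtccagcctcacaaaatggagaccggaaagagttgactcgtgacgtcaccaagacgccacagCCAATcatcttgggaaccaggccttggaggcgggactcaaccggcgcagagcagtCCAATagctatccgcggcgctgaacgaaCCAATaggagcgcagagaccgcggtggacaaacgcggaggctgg
Pold1: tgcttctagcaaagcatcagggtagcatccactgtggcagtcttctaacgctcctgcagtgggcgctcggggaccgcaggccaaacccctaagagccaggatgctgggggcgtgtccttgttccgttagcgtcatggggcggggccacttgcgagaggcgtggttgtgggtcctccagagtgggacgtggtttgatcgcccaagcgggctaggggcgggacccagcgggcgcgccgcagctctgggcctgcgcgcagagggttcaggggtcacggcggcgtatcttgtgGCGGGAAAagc
Mcm6: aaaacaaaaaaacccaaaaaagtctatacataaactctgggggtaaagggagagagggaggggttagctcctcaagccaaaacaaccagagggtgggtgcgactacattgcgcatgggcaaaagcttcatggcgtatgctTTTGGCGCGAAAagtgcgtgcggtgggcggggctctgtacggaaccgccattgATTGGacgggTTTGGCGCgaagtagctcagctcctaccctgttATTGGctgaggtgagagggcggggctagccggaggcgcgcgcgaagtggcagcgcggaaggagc
Rrm1: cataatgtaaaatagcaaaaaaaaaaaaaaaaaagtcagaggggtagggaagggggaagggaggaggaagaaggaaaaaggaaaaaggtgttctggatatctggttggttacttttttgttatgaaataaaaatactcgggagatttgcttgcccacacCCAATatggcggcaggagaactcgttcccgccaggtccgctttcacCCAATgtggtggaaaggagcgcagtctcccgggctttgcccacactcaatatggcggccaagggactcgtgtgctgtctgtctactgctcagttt

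The E2F word was in 14 of the 45 promoters (31.1%), in 3.85% of 13710 promoters of genes tested here and in 2.26% of all 32851 promoters in the RefSeq table. Those 14 belong to Cdc6, Cdt1, Clspn, Gins3, Lig1, Mcm3, Mcm5, Mcm6, Mcm7, Orc1, Pola1, Pold1, Pole2 and Rfc3. CCAAT was in 24 of the 45 (53.3%), against 37.7% of promoters of genes tested and 37.4% of all. Both words were in 9 (20%), against 1.67% and 0.962%. The median GC content of the 45 was 61.3%, near the 60.3% of promoters of genes tested. A match describes the letters in the window and not a bound site, and both genes that passed the test and genes that did not are among the 14.

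Licensing genes gave 9 calls among 11 from E14.5 to P21, where 4.37% of all genes tested fell. That share also stands beside the counts over this span for each role below. The 6 subunits of the MCM2 to MCM7 helicase all fell over that span. Mcm5, the gene with the smallest p, was at 350.0, 350.0 and 372 CPM (E14.5), 221, 204 and 195 (P3), 118, 85.9 and 86 (P10), 84.2, 79 and 114 (P21) and 35.7, 36.8 and 44.7 (P56). Each age was below the one before without overlap except P21 and P10, which overlapped. Mcm5 fell by 0.79 ± 0.16 on the log2 scale (adjusted p = 0.0225) from E14.5 to P3, and from P3 to P10 it fell by 1.10 ± 0.17 on the log2 scale (adjusted p = 0.00809). The step from P10 to P21 did not pass (-0.06 ± 0.16, adjusted p = 0.924), and Mcm5 then fell by 1.24 ± 0.17 on the log2 scale (adjusted p = 0.0075) from P21 to P56. From E14.5 to P21, Mcm5 fell by 1.95 ± 0.17 on the log2 scale (adjusted p = 4.59e-06), or 3.87-fold. The P3 call was lost without E14.5 replicates 1, 2 or 3 or P3 replicates 1, 2 or 3, with an adjusted p of 0.0594 to 0.112, and the P10 call without P3 replicate 1 or P10 replicate 2, with an adjusted p of 0.0539 to 0.062.

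Mcm6 was at 713, 666 and 641 CPM (E14.5), 399, 378 and 324 (P3), 296, 196 and 225 (P10), 159, 128 and 229 (P21) and 68.8, 98.2 and 134 (P56). The postnatal libraries were all below the embryonic ones. Mcm6 fell by 1.97 ± 0.25 on the log2 scale (adjusted p = 0.000142) from E14.5 to P21. From P3 to P21 it fell by 1.10 ± 0.24 on the log2 scale (adjusted p = 0.0231), a call lost without P3 replicates 1, 2 or 3 or P21 replicates 1 or 2, with an adjusted p of 0.0519 to 0.0999. Mcm4 was at 267, 259.6 and 276 CPM (E14.5), 102, 139.7 and 113 (P3), 67.1, 42.8 and 76.6 (P10), 52.3, 29.3 and 73.7 (P21) and 40.1, 44.8 and 40.5 (P56), with the first step the largest. Mcm4 fell by 1.18 ± 0.28 on the log2 scale (adjusted p = 0.0436) from E14.5 to P3 and fell by 2.37 ± 0.29 on the log2 scale (adjusted p = 9.63e-05) from E14.5 to P21. The P3 call was lost without E14.5 replicates 1, 2 or 3, P3 replicates 1, 2 or 3, P10 replicates 1 or 3, P21 replicate 1 or P56 replicates 4, 5 or 6, with an adjusted p of 0.0502 to 0.179. Between P3 and P21, Mcm4 fell by 1.19 ± 0.28 on the log2 scale (adjusted p = 0.0291), a call lost without P3 replicates 1, 2 or 3 or P21 replicates 1 or 2, with an adjusted p of 0.0572 to 0.12.

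Mcm3 was at 233, 323 and 364 CPM (E14.5), 193, 157 and 189 (P3), 96, 105 and 121 (P10), 94.9, 138 and 131 (P21) and 76.7, 106 and 79.7 (P56). It was lower in every P10 library than in every P3 library, and its P21 values overlapped with those of P10. Mcm3 fell by 1.34 ± 0.20 on the log2 scale (adjusted p = 0.000514) from E14.5 to P21, the smallest change of the 6 subunits. Mcm7 was at 211, 167 and 174 CPM (E14.5), 86, 98.1 and 119.8 (P3), 63, 24.7 and 53.7 (P10), 39.5, 58.9 and 61.7 (P21) and 7.48, 27.4 and 28 (P56), with P10 and P21 overlapping and P56 below P21. Mcm7 fell by 1.79 ± 0.42 on the log2 scale (adjusted p = 0.0126) from E14.5 to P21, a call lost without P21 replicate 1, with an adjusted p of 0.0577. Mcm2 was at 270.1, 255 and 306 CPM (E14.5), 157, 139 and 136 (P3), 106, 85.1 and 76 (P10), 93.1, 8.5 and 64.9 (P21) and 23.5, 34.6 and 45.2 (P56), and P21 replicate 2 was far below the other P21 libraries. Mcm2 fell by 2.32 ± 0.55 on the log2 scale (adjusted p = 0.0129) from E14.5 to P21.

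Per kilobase of exon, on a scale of TMM-scaled CPM divided by exon length, Mcm6 stood at 144 ± 7.87 at E14.5 (mean ± SD, n = 3), above Mcm5 at 89.5 ± 3.22, Mcm3 at 81.7 ± 17.8 and Mcm4 at 74.5 ± 2.23. Mcm7 at 41.6 ± 5.29 and Mcm2 at 39.8 ± 3.75 were lower. The neighbours Mcm5 and Mcm3, Mcm3 and Mcm4, and Mcm7 and Mcm2 did not differ beyond their spread. At P21 the means on this scale were 36.8 ± 11.1 for Mcm6, 32.3 ± 6.16 for Mcm3, 23.1 ± 4.66 for Mcm5, 14.4 ± 6.19 for Mcm4, 12.1 ± 2.73 for Mcm7 and 7.98 ± 6.19 for Mcm2. Exon lengths came from GENCODE M21 by symbol, which need not be the annotation of the counts, so these levels are approximate. Each length joined all annotated exons of a gene, which can exceed 1 transcript. It was 6.96 kb for Mcm2, 3.75 kb for Mcm3 and 3.59 kb for Mcm4. Their E14.5 means before this division were close, at 277, 307 and 267 CPM, so the order depends on the lengths used.

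**Figure D3:**
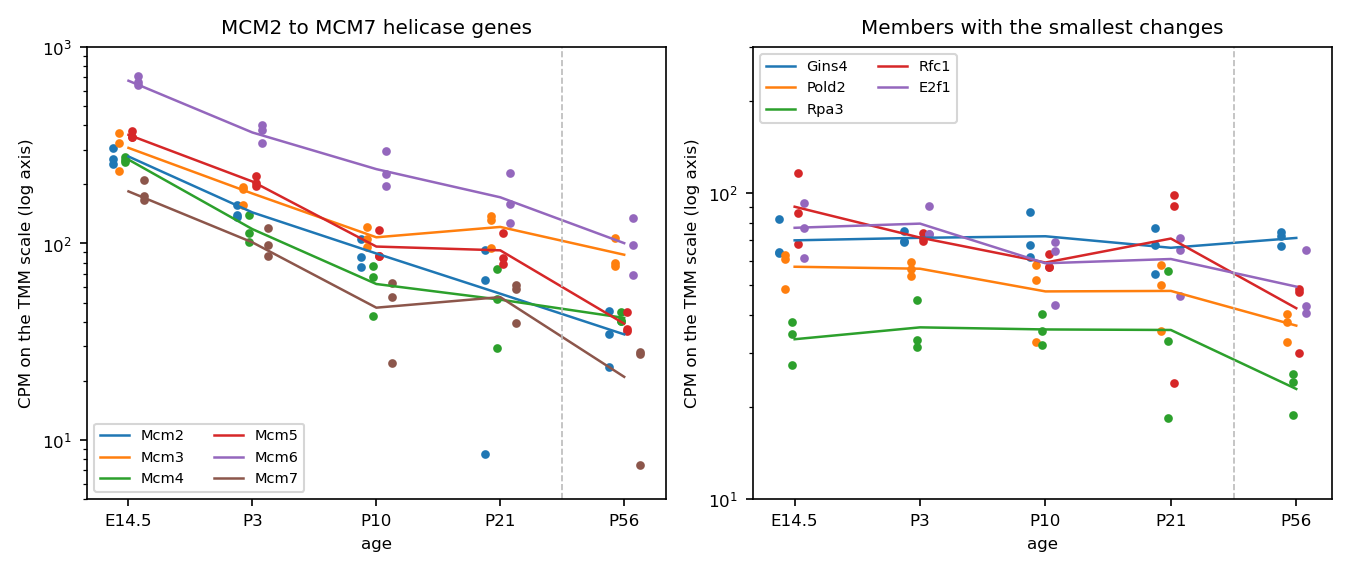
Level of MCM2 to MCM7 (left) and of 5 replication genes with small changes from E14.5 to P21 (right) by age, in TMM-scaled CPM on a log axis; points are libraries and lines join the means of 3 libraries. The MCM genes go down from E14.5, Mcm5 from 357 to 92.3 CPM at P21, while Gins4 keeps a mean of 66.2 to 72.2 CPM at all 5 ages.

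Of the loading factors, Cdc6 was at 47.4, 57.1 and 77 CPM (E14.5), 30.7, 36.1 and 26.1 (P3), 11.9, 16.4 and 7.68 (P10), 12.8, 0.157 and 11.2 (P21) and 7.25, 2.63 and 5.45 (P56). Postnatal values were all below the embryonic ones, and P21 replicate 2 was near 0. Cdc6 fell by 2.91 ± 0.86 on the log2 scale (adjusted p = 0.0415) from E14.5 to P21, and this call was lost without E14.5 replicates 1, 2 or 3, P3 replicates 1, 2 or 3, P10 replicates 1, 2 or 3, P21 replicates 1 or 3 or P56 replicate 6, with an adjusted p of 0.0525 to 0.115. Orc6, a subunit of the origin recognition complex, was at 67.1, 81.9 and 69.3 CPM (E14.5), 50.5, 52.1 and 54.3 (P3), 36.3, 54.1 and 31.2 (P10), 43.8, 43.2 and 25.1 (P21) and 20.4, 23.1 and 21 (P56), and P10 overlapped with both P3 and P21. Orc6 fell by 0.96 ± 0.24 on the log2 scale (adjusted p = 0.0181), a call lost without E14.5 replicate 2 or P21 replicate 3, with an adjusted p of 0.0538 to 0.0822. Gmnn encodes geminin, which binds Cdt1 and blocks a second licensing, and it was at 113, 60.4 and 78.9 CPM (E14.5), 68.7, 68.1 and 68.2 (P3), 52.2, 49.96 and 39.3 (P10), 30.02, 16.6 and 33.3 (P21) and 20.5, 6.8 and 14.2 (P56). E14.5 and P3 overlapped, and the libraries of P10 and of P21 each lay below those of the age before. Gmnn fell by 1.66 ± 0.36 on the log2 scale (adjusted p = 0.00787) from E14.5 to P21. Cdt1 (-2.58 ± 0.86, adjusted p = 0.0679) and Orc1 (-3.14 ± 1.54, adjusted p = 0.222) did not pass, with 0.31 and 0.16 CPM in P21 replicate 2.

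Among the 7 genes of helicase activation, 2 passed from E14.5 to P21. Gins2, a subunit of GINS, was at 65, 84.5 and 76.6 CPM (E14.5), 63.5, 54.8 and 58.2 (P3), 31.8, 46.9 and 37.6 (P10), 21.9, 19.2 and 29.1 (P21) and 21.5, 14 and 14.2 (P56). Its P3, P10 and P21 libraries each lay below those of the age before. Gins2 fell by 1.69 ± 0.24 on the log2 scale (adjusted p = 0.000341) from E14.5 to P21 and fell by 1.33 ± 0.24 on the log2 scale (adjusted p = 0.00583) from P3 to P21. Wdhd1, which tethers polymerase alpha to the helicase, was at 51.6, 41.3 and 51.2 CPM (E14.5), 20.5, 23.7 and 15.5 (P3), 6.82, 5.7 and 4.02 (P10), 7.48, 18.5 and 5.49 (P21) and 4.72, 2.85 and 11.1 (P56), with its low point at P10 and P21 replicate 2 above the other P21 libraries. Wdhd1 fell by 2.20 ± 0.52 on the log2 scale (adjusted p = 0.013), a call lost without P21 replicate 1, with an adjusted p of 0.0572. Mcm10, a firing factor at origins, was at 76.4, 61.5 and 59.2 CPM (E14.5), 21.2, 29 and 19.8 (P3), 8.45, 11.4 and 9.36 (P10), 1.56, 13.2 and 9.11 (P21) and 0, 1.65 and 0 (P56). It passed the F-test (adjusted p = 0.00592) but missed the threshold from E14.5 to P21 (-3.05 ± 0.96, adjusted p = 0.0544). Cdc45, part of the active helicase, likewise passed the F-test alone (adjusted p = 0.0276), with means of 36.6 ± 5.25 CPM at E14.5, 13.3 ± 6.85 at P10 and 15.5 ± 2.65 at P21. The GINS subunits differed in what they showed: Gins1 (-2.56 ± 0.95, adjusted p = 0.101) and Gins3 (-2.47 ± 1.02, adjusted p = 0.141) had 0 counts in P21 replicate 2 and did not pass, while Gins4 stayed between 54.2 and 87.0 CPM in all 15 libraries (-0.08 ± 0.18, adjusted p = 0.833).

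The sliding clamp and its loader gave 5 calls among 6 genes, and their changes were smaller, with a median of -0.85 beside -1.97 for licensing. Pcna, the clamp that holds polymerases on DNA, was at 139, 83.5 and 89.4 CPM (E14.5), 59.5, 78.8 and 75 (P3), 65.3, 75.5 and 70.1 (P10), 50.4, 70.3 and 53 (P21) and 44.9, 40.6 and 44.3 (P56). P3, P10 and P21 overlapped, and E14.5 replicate 1 was well above the other embryonic libraries. Pcna fell by 0.85 ± 0.21 on the log2 scale (adjusted p = 0.0156) from E14.5 to P21, and the call was lost without E14.5 replicate 1 or P21 replicate 1, with an adjusted p of 0.0639 to 0.0808. The loader subunit Rfc5 was at 94.5, 77 and 98.9 CPM (E14.5), 53, 72.2 and 60.2 (P3), 32.8, 60.6 and 57.2 (P10), 22.2, 34.1 and 37.5 (P21) and 35.7, 18.6 and 16.2 (P56), and Rfc5 fell by 1.53 ± 0.32 on the log2 scale (adjusted p = 0.00621). Rfc4 was at 58.4, 69 and 66.9 CPM (E14.5), 43.4, 45.5 and 56.5 (P3), 32.9, 40.5 and 34.1 (P10), 14.4, 36 and 27.5 (P21) and 23, 12 and 15.5 (P56), and Rfc4 fell by 1.32 ± 0.31 on the log2 scale (adjusted p = 0.0122). In both, P21 lay below P3 without overlap.

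Rfc2 was at 240.2, 156 and 166 CPM (E14.5), 108, 120.0 and 139 (P3), 126, 140.5 and 112 (P10), 94.3, 112 and 105 (P21) and 93.5, 62.9 and 83.2 (P56), and the P3 and P10 libraries overlapped. Rfc2 fell by 0.85 ± 0.19 on the log2 scale (adjusted p = 0.00957) from E14.5 to P21. Rfc3 was at 70.1, 50.6 and 50.6 CPM (E14.5), 43.3, 40.8 and 47.5 (P3), 53.5, 34.9 and 38 (P10), 37.1, 35.5 and 25.2 (P21) and 18.8, 23 and 19.5 (P56), and Rfc3 fell by 0.81 ± 0.23 on the log2 scale (adjusted p = 0.0324), a call lost without E14.5 replicates 1, 2 or 3 or P21 replicates 2 or 3, with an adjusted p of 0.0553 to 0.144. Rfc1, the large subunit of the loader, did not pass in any comparison (-0.35 ± 0.38, adjusted p = 0.628 from E14.5 to P21), and its P21 libraries ran from 24.0 to 98.2 CPM. The subunits of this loader thus showed unequal differences over the same span, from -0.35 for Rfc1 to -1.53 for Rfc5, and those gene-to-gene differences were not tested.

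Primase and polymerase genes gave 2 calls among 8. Pold1, the catalytic subunit of polymerase delta, was at 95.2, 97.3 and 103 CPM (E14.5), 59.6, 54.5 and 46.9 (P3), 18.9, 19.8 and 19.3 (P10), 29.2, 15.7 and 30.2 (P21) and 18, 15.2 and 31.1 (P56). The P10 libraries were close together and all below P3, and no P21 or P56 library reached the P3 level. Pold1 fell by 1.47 ± 0.28 on the log2 scale (adjusted p = 0.0449) from P3 to P10, a call lost without E14.5 replicates 1, 2 or 3, P3 replicates 1, 2 or 3, P10 replicates 1, 2 or 3 or P21 replicate 1, with an adjusted p of 0.0504 to 0.192. Over the whole span to P21 it fell by 1.97 ± 0.29 on the log2 scale (adjusted p = 0.000421), and from P3 to P21 it fell by 1.10 ± 0.28 on the log2 scale (adjusted p = 0.0452). That last call was lost without E14.5 replicates 1, 2 or 3, P3 replicates 1, 2 or 3, P10 replicates 1, 2 or 3 or P21 replicates 1 or 2, with an adjusted p of 0.0595 to 0.158. Its partner subunit Pold2 ranged from 32.5 to 62.9 CPM over the 15 libraries and did not pass (-0.26 ± 0.23, adjusted p = 0.532 from E14.5 to P21). Pola2, the accessory subunit of polymerase alpha, was at 102, 62.5 and 68.9 CPM (E14.5), 41.5, 27.5 and 47.9 (P3), 24.9, 32.1 and 39 (P10), 22.8, 12.9 and 32.9 (P21) and 28.7, 26.7 and 13.4 (P56), and every later library was below the embryonic ones. Pola2 fell by 1.76 ± 0.38 on the log2 scale (adjusted p = 0.00695). The primase subunits Prim1 (-1.72 ± 0.55, adjusted p = 0.0572) and Prim2 (-1.36 ± 0.47, adjusted p = 0.0789) were lower at P21 in every library and missed the threshold. Pola1 (-1.23 ± 0.64, adjusted p = 0.247), Pole (-3.04 ± 1.78, adjusted p = 0.306) and Pole2 (-1.76 ± 0.82, adjusted p = 0.191) did not pass either, and P21 replicate 2 held the highest Pola1 value of that age (40.2 CPM) and the lowest Pole2 value (0.31 CPM).

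RPA coats single-stranded DNA, and 2 of its 3 subunit genes fell. Rpa2 was at 128, 127 and 115 CPM (E14.5), 94.1, 109.8 and 107 (P3), 59.2, 64.2 and 63.3 (P10), 56.3, 47.9 and 70.05 (P21) and 50.1, 32.4 and 39.7 (P56), with the main drop between P3 and P10, where the libraries did not overlap. Rpa2 fell by 1.09 ± 0.18 on the log2 scale (adjusted p = 0.00116) from E14.5 to P21 and fell by 0.83 ± 0.18 on the log2 scale (adjusted p = 0.0191) from P3 to P21, a call lost without P3 replicates 2 or 3 or P21 replicates 1 or 2, with an adjusted p of 0.0653 to 0.0812. Rpa1 was at 109, 146 and 145 CPM (E14.5), 106, 82.7 and 76.7 (P3), 91.5, 104 and 57.5 (P10), 82.2, 58 and 44.6 (P21) and 43.1, 24.2 and 53.3 (P56). The P10 libraries of Rpa1 overlapped with those of P3 and of P21. Rpa1 fell by 1.11 ± 0.31 on the log2 scale (adjusted p = 0.0288) from E14.5 to P21, lost without E14.5 replicates 2 or 3 or P21 replicates 2 or 3, with an adjusted p of 0.0874 to 0.0966. Rpa3, the smallest subunit, did not pass in any comparison, with means of 33.3 ± 5.31 CPM at E14.5, 35.7 ± 18.9 at P21 and 22.9 ± 3.56 at P56. Of the genes that finish Okazaki fragments, the ligase gene Lig1 was at 193, 143 and 191 CPM (E14.5), 87.2, 98.2 and 125 (P3), 42.9, 45.4 and 61.6 (P10), 31, 56.8 and 55.7 (P21) and 13, 26.1 and 34.8 (P56). Its P10 libraries were all below P3, and P10 and P21 overlapped. Lig1 fell by 1.87 ± 0.33 on the log2 scale (adjusted p = 0.00169) from E14.5 to P21. The flap nuclease gene Fen1 missed the threshold (-1.47 ± 0.48, adjusted p = 0.0635) at means of 17.1 ± 1.14 CPM at E14.5 and 6.17 ± 1.36 at P21.

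Genes that supply nucleotides gave 4 calls among 5. Ribonucleotide reductase makes deoxyribonucleotides, and its large subunit gene Rrm1 was at 450.3, 362 and 377 CPM (E14.5), 190.5, 275 and 198 (P3), 155, 109 and 102 (P10), 86.2, 134 and 122 (P21) and 69.4, 62.1 and 78.2 (P56). Embryonic, P3 and P10 libraries did not overlap with each other, and P10 overlapped with P21. Rrm1 fell by 1.80 ± 0.21 on the log2 scale (adjusted p = 7.8e-05) from E14.5 to P21 and fell by 0.95 ± 0.21 on the log2 scale (adjusted p = 0.0203) from P3 to P21, a call lost without P3 replicate 2 or P21 replicate 1, with an adjusted p of 0.0783 to 0.103. The small subunit gene Rrm2 was at 182, 204 and 201 CPM (E14.5), 112, 120.5 and 139 (P3), 49.1, 37.2 and 61 (P10), 21.7, 55.7 and 57.4 (P21) and 12.7, 11.7 and 6.06 (P56). It went on down to P56, where all 3 libraries were below all others. Rrm2 fell by 2.13 ± 0.34 on the log2 scale (adjusted p = 0.00094) from E14.5 to P21 and fell by 2.15 ± 0.35 on the log2 scale (adjusted p = 0.0218) from P21 to P56, the latter lost without P21 replicate 2 or P56 replicate 6, with an adjusted p of 0.0506 to 0.0527. From P3 to P21 it fell by 1.46 ± 0.34 on the log2 scale (adjusted p = 0.0277), lost without P3 replicates 1, 2 or 3 or P21 replicate 1, with an adjusted p of 0.0549 to 0.101.

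Thymidylate synthase, Tyms, was at 102, 104 and 92.9 CPM (E14.5), 56.8, 76 and 60.7 (P3), 43.7, 42.9 and 36.1 (P10), 17.3, 27.6 and 34.2 (P21) and 7.48, 12.4 and 18.8 (P56). Each age to P21 lay below the one before without overlap. Tyms fell by 1.92 ± 0.31 on the log2 scale (adjusted p = 0.000876) from E14.5 to P21 and fell by 1.29 ± 0.30 on the log2 scale (adjusted p = 0.0299) from P3 to P21, lost without E14.5 replicate 2, P3 replicates 1, 2 or 3 or P21 replicates 1 or 2, with an adjusted p of 0.0515 to 0.121. Dut, which clears dUTP, was at 46.2, 51.6 and 53.6 CPM (E14.5), 42, 49.2 and 38.9 (P3), 23.8, 27.8 and 31.9 (P10), 26.4, 21.1 and 27.4 (P21) and 8.87, 14.4 and 18.2 (P56), with E14.5 and P3 overlapping. Dut fell by 1.02 ± 0.25 on the log2 scale (adjusted p = 0.0173) from E14.5 to P21, lost without E14.5 replicates 2 or 3 or P21 replicate 2, with an adjusted p of 0.0628 to 0.0675. Tk1, thymidine kinase, passed only the F-test (adjusted p = 0.0421). Its mean was 81.6 ± 12.3 CPM at E14.5 and 79 ± 5.06 at P3, and its P10 libraries were all below those of P3, at 50.9 ± 2.63.

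Of the G1 to S regulators, 1 of 3 passed. Ccne2, a cyclin E gene that drives CDK2 at S phase entry, was at 29.5, 40.9 and 45 CPM (E14.5), 26.3, 17.3 and 41.5 (P3), 17.6, 13.6 and 14.1 (P10), 12.5, 19.9 and 11.8 (P21) and 3.57, 4.5 and 2.22 (P56). E14.5 and P3 overlapped, and the P56 libraries were below all others. Ccne2 fell by 1.38 ± 0.37 on the log2 scale (adjusted p = 0.0258) from E14.5 to P21, lost without E14.5 replicates 2 or 3 or P21 replicates 1 or 3, with an adjusted p of 0.0795 to 0.1. It also fell by 2.10 ± 0.39 on the log2 scale (adjusted p = 0.0372) from P21 to P56, lost without E14.5 replicates 1, 2 or 3, P3 replicate 1, P10 replicates 1, 2 or 3, P21 replicates 1 or 2 or P56 replicates 4, 5 or 6, with an adjusted p of 0.0531 to 0.104. Its paralog Ccne1 had a larger difference with a wide error and did not pass (-3.03 ± 1.29, adjusted p = 0.156). E2f1, a transcription factor that switches on S phase genes, was itself at 77 ± 15.7 CPM at E14.5, 79.4 ± 9.93 at P3 and 60.9 ± 13.2 by P21, a difference that missed the threshold (-0.34 ± 0.25, adjusted p = 0.433).

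In chromatin assembly and fork protection, the 2 called genes of 4 were those of the CAF-1 complex, which places histones on new DNA. Chaf1a was at 56.5, 70.2 and 80.05 CPM (E14.5), 36.3, 31 and 57.9 (P3), 16.2, 9.83 and 21.4 (P10), 9.48, 6.62 and 14.7 (P21) and 5.12, 3.84 and 5.67 (P56). Its P10 libraries were all below P3, and its mean at P21 was 6.71-fold below that of E14.5. Chaf1a fell by 2.75 ± 0.38 on the log2 scale (adjusted p = 0.000283) from E14.5 to P21 and fell by 2.02 ± 0.37 on the log2 scale (adjusted p = 0.00734) from P3 to P21. Chaf1b was at 99.9, 64.7 and 66.3 CPM (E14.5), 47, 29.2 and 44.6 (P3), 27.5, 28.1 and 25 (P10), 24.1, 7.83 and 25 (P21) and 5.07, 21.3 and 3.44 (P56), and P21 replicate 2 was lower than the other P21 libraries. Chaf1b fell by 2.02 ± 0.58 on the log2 scale (adjusted p = 0.0347), lost without E14.5 replicates 1, 2 or 3 or P21 replicates 1 or 2, with an adjusted p of 0.0652 to 0.117. The fork stabiliser gene Timeless (-2.28 ± 0.93, adjusted p = 0.136) and Clspn (-2.21 ± 1.11, adjusted p = 0.227) were lower in every P21 library than in every E14.5 library and did not pass.

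**Figure D4:**
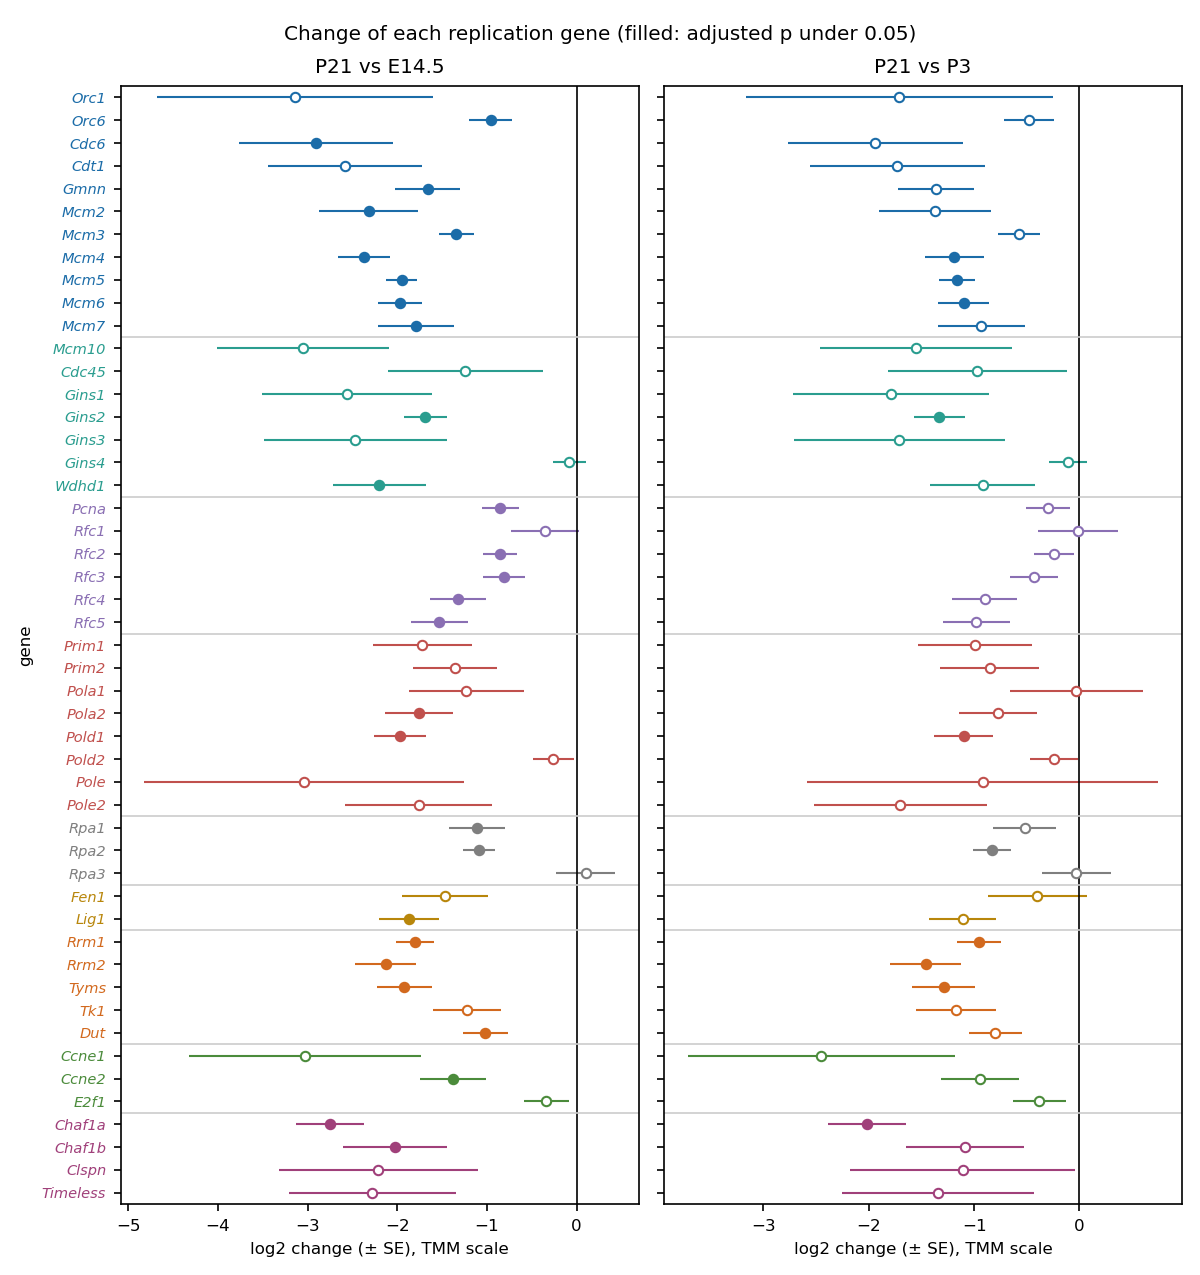
Log2 change of each of the 49 genes (horizontal axis, fitted value ± SE) from E14.5 to P21 and from P3 to P21, ordered by role, with filled points for an adjusted p under 0.05. In the first panel 28 points are filled, all to the left of 0, and in the second 10.

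In all, 18 of the 49 genes passed none of edgeR's tests. They fall into 2 kinds. For Gins4, Rpa3, Pold2, E2f1 and Rfc1 the log2 change from E14.5 to P21 lay between -0.35 and 0.10, and their libraries overlapped between these ages. The other 13, Orc1, Cdt1, Gins1, Gins3, Prim1, Prim2, Pola1, Pole, Pole2, Fen1, Ccne1, Clspn and Timeless, had changes of -1.23 or lower, with every P21 library below every E14.5 library. Many of them had wide errors, but those of Fen1 and Prim2 were no wider than those of some called genes. For these 13 the outcome differed between tools. From E14.5 to P21, limma voom called 11 of them lower, all but Pole and Pole2 (adjusted p = 0.00923 to 0.0423), and DESeq2 called 6, Cdt1, Gins1, Gins3, Prim1, Prim2 and Fen1 (adjusted p = 0.00648 to 0.0315), and gave no adjusted p for Timeless. Neither tool called Gins4, Rpa3, Pold2, E2f1 or Rfc1 in any comparison. Among the P21 libraries, replicate 2 held the lowest value for Cdt1, Gins1, Gins3, Prim1, Prim2, Pole, Pole2, Ccne1 and Clspn.

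The step with the largest lowering of the mean on the way to P21 differed between the genes. By the ratio of mean CPM it was E14.5 to P3 for 19 of the 49, P3 to P10 for 20 and P10 to P21 for 10, and among the 28 genes called from E14.5 to P21 it was 11, 13 and 4. Without P21 replicate 2 these counts were 21, 19 and 9 of the 49, and 10, 12 and 6 of the 28. By the mean of log2 CPM, to which a library near 0 adds more, they were 16, 14 and 19 of the 49 with that library and 22, 19 and 8 without it. The largest step of 32 genes was the same under the 5 measures tried, and Mcm2, Cdc6 and Tyms were among those that moved. As CPM of the total, the licensing sum was at 53.7% (P3), 29.3% (P10), 21.5% (P21) and 11.6% (P56) of its E14.5 mean. The sum of nucleotide supply genes was at 62.6% (P3), 32% (P10), 24.1% (P21) and 10.4% (P56), and that of the clamp and its loader at 68.6% (P3), 58.6% (P10), 44% (P21) and 27.9% (P56). Chromatin assembly and fork protection genes were at 52.7% (P3), 28% (P10), 16.5% (P21) and 5.7% (P56), the lowest share of the 9 roles at P56, and RPA genes at 76.3% (P3), 56.8% (P10), 43.1% (P21) and 26.2% (P56).

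**Figure D5:**
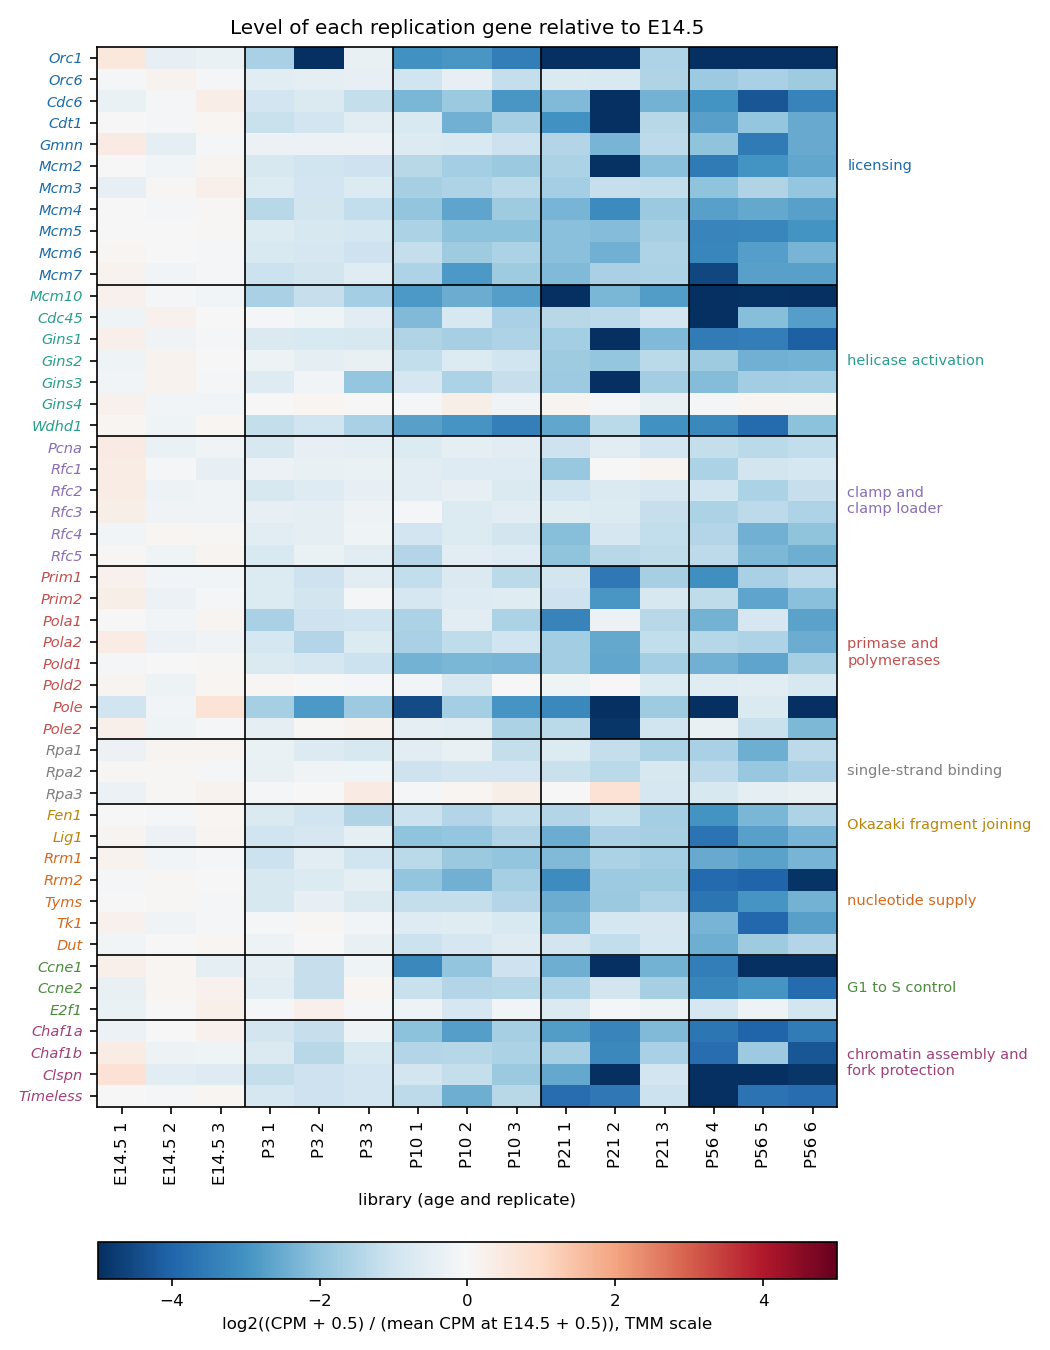
Log2 ratio of each gene (rows, by role) in each library (columns, by age) to its mean at E14.5, from TMM-scaled CPM with 0.5 added, with colours that end at -5 and 5. Colours turn to lower values from left to right for most rows, P21 replicate 2 is uneven between genes, and the row of Gins4 stays near 0.

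The wider pathway was read from 69 further genes in 5 lists, all of them tested. From E14.5 to P21, 18 fell and 4 rose, beside 4.37% and 7.81% of all genes. Among 30 other replication factors, 5 fell, and those with the smallest p were Tipin, the partner of Timeless (-1.08 ± 0.16, adjusted p = 0.000488), Dbf4, which activates the CDC7 kinase (-1.83 ± 0.38, adjusted p = 0.00617), Pole3, a histone-fold subunit of polymerase epsilon (-1.04 ± 0.25, adjusted p = 0.0149), and Ssrp1, a FACT histone chaperone subunit (-0.65 ± 0.17, adjusted p = 0.0235). The call of Pole3 was lost without E14.5 replicate 1 or P21 replicates 1 or 3, with an adjusted p of 0.0504 to 0.0752, and that of Ssrp1 without E14.5 replicates 2 or 3 or P21 replicates 1 or 3, with an adjusted p of 0.0704 to 0.0913. Of 7 genes of histone and DNA methylation upkeep, 5 fell, among them Uhrf1, which guides maintenance methylation (-2.07 ± 0.32, adjusted p = 0.000604), the histone chaperone gene Nasp (-1.84 ± 0.31, adjusted p = 0.00116), the histone acetyltransferase gene Hat1 (-1.03 ± 0.21, adjusted p = 0.00483) and the histone mRNA binding gene Slbp (-0.63 ± 0.15, adjusted p = 0.0141). The Slbp call was lost without E14.5 replicate 3 or P21 replicate 1, with an adjusted p of 0.0643 to 0.0746. Uhrf1 also fell by 2.30 ± 0.32 on the log2 scale (adjusted p = 0.0075) from P21 to P56, a call lost in a fit of these 2 ages alone (adjusted p = 0.305).

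In other nucleotide supply, 2 of 8 fell, among them Dtymk, thymidylate kinase (-0.84 ± 0.19, adjusted p = 0.00994). Samhd1, which breaks down deoxyribonucleotides, rose by 0.75 ± 0.20 on the log2 scale (adjusted p = 0.0266), a call lost without E14.5 replicates 2 or 3 or P21 replicate 1, with an adjusted p of 0.0923 to 0.125, and also with no scaling factor (0.44, adjusted p = 0.17). Among 16 E2F, cyclin and kinase genes, 5 fell and 1 rose. Cdk4 (-0.91 ± 0.15, adjusted p = 0.000981), Ccna2, cyclin A2 (-2.29 ± 0.48, adjusted p = 0.00617), and Tfdp1, the DNA-binding partner of E2F (-1.18 ± 0.25, adjusted p = 0.00662), were among those that fell. Ccnd2, cyclin D2, was the one that rose, with 10.7 ± 1.15 CPM in the embryo, 47.2 ± 20.8 by P3 and 53.3 ± 15 by P21. It rose by 2.14 ± 0.32 on the log2 scale (adjusted p = 0.00322) by P3, where 1.67% of all genes rose.

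Of 8 brakes on S phase entry, Rbl1, an RB family gene, fell (-1.44 ± 0.34, adjusted p = 0.0126), and the CDK inhibitor genes Cdkn1a (0.71 ± 0.19, adjusted p = 0.0276) and Cdkn2d (0.77 ± 0.24, adjusted p = 0.0481) rose. The Rbl1 call was lost without E14.5 replicate 3, with an adjusted p of 0.0548, and that of Cdkn1a without E14.5 replicates 1, 2 or 3 or P21 replicate 1, with an adjusted p of 0.0755 to 0.133. That of Cdkn2d was lost without E14.5 replicates 1, 2 or 3, P3 replicates 1 or 2, P10 replicates 1, 2 or 3, P21 replicates 1, 2 or 3 or P56 replicates 4, 5 or 6, with an adjusted p of 0.0533 to 0.174. With no scaling factor neither passed, at 0.40 (adjusted p = 0.168) for Cdkn1a and 0.46 (0.217) for Cdkn2d. A fit of these 2 ages alone lost Cdkn1a (adjusted p = 0.0523), Cdkn2d (0.152) and Rbl1 (0.0588), along with Samhd1 (0.0727) and Pole3 (0.0686), and Cdkn2d also missed the threshold with no filter (0.271) and with limma voom (0.0505). From P3 to P21, where 2.70% of all genes rose, Cdkn1a rose by 0.89 ± 0.19 on the log2 scale (adjusted p = 0.021), a call lost without P3 replicates 1, 2 or 3 or P21 replicate 1, with an adjusted p of 0.0664 to 0.106 and also with no scaling factor (0.62, adjusted p = 0.074) or in a fit of these 2 ages alone (0.0574). Cdkn1c, which encodes the CDK inhibitor p57, had a peak at P3. Its libraries were at 17.7, 20.4 and 35.3 CPM (E14.5), 87.5, 169 and 167 (P3), 73, 65 and 70.1 (P10), 42.8, 32.7 and 42.1 (P21) and 23, 19 and 22.8 (P56). Cdkn1c rose by 2.53 ± 0.29 on the log2 scale (adjusted p = 0.000413) from E14.5 to P3 and fell by 1.85 ± 0.29 on the log2 scale (adjusted p = 0.00211) from P3 to P21.

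Genes of mitosis, read for comparison, gave 12 calls among 16 from E14.5 to P21, all lower, where 4.37% of all genes tested fell. Their median was -2.45 beside -1.76 for the 49 replication genes. The difference between these medians was not tested. The 4 with the smallest p were Cdk1 (-1.99 ± 0.27, adjusted p = 0.000217), Birc5, which encodes survivin (-1.67 ± 0.22, adjusted p = 0.000219), Aurkb (-1.84 ± 0.28, adjusted p = 0.000545) and Aurka (-2.69 ± 0.41, adjusted p = 0.00056). The summed level of the 16 as CPM of the total was 2176 to 2709 at E14.5, 306 to 715 at P21 and 173 to 217 at P56. Birc5 passed on the step from P10 to P21 (-1.07 ± 0.22, adjusted p = 0.0326), where none of the 49 did and 0.184% of all genes were called lower. This call was lost without E14.5 replicate 2, P3 replicates 1 or 2, P10 replicates 1, 2 or 3 or P21 replicates 1, 2 or 3, with an adjusted p of 0.0507 to 0.137, and in a fit of these 2 ages alone (adjusted p = 0.0597).

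Markers of other cells are given here as the range of their summed CPM of the total over the 3 libraries of an age. The 8 mast cell genes ran from 2.11 to 126 at E14.5, 636 to 1763 at P3, 173 to 435 at P10, 4.05 to 10.9 at P21 and 10.2 to 291 at P56. The 12 granulocyte and precursor genes ran from 0.397 to 2.58 at E14.5, 6.21 to 224 at P3 and 0.882 to 2.54 at P21, and 4 of them, Elane and Ly6g included, were at 0 in all E14.5 libraries. For 8 fibroblast genes the range was 72.2 to 716 at E14.5, 540.3 to 2466 at P3, 672 to 2754 at P10, 1031 to 1859 at P21 and 82.4 to 139.8 at P56. The 10 red cell genes, most of whose level at P21 was Epor, were at 166 to 198 at E14.5, 200.2 to 353 at P3 and 69.9 to 82.1 at P21. Within that sum, the globin gene Hbb-bs ran from 45.7 to 50.1 at E14.5, 58.5 to 159 at P3 and 0.19 to 1.68 at P21. The globin gene Hba-a1 ran from 13.6 to 22.5, 16.4 to 37.9 and 0.363 to 1.72 at these ages. Epor was at 60.1 to 79.6 at E14.5, 75.2 to 108 at P3 and 66.3 to 79.6 at P21. The sum of the 5 monocyte genes had its lowest mean in the embryo and its highest at P56. It ran from 18.02 to 36.7 at E14.5, 42.3 to 54.6 at P3, 21.7 to 59.3 at P10, 77.4 to 141 at P21 and 52.3 to 460.1 at P56, with the highest value in P56 replicate 4. Most of it was Ccr2, at 16.1 to 35.1 at E14.5, 62.7 to 135 at P21 and 52.3 to 460 at P56. Other genes of that list went another way: Vcan reached 30.6 at P3 and at most 0.0493 at P56, and Plac8 reached 10.7 and at most 2.2. In the embryo the 6 endothelial genes ran from 58.1 to 61.8 and the 8 B cell genes from 85.3 to 104, by P21 these ranges were 56.5 to 96.1 and 85.9 to 124, and the 7 T and NK cell genes were at no more than 4.48 in any library. None of these 8 lists had its highest mean sum at E14.5, but several sums rested mostly on 1 gene. At E14.5, Cd79b was at 82.6 to 103 within the B cell sum and Egfl7 at 44.1 to 52.3 within the endothelial sum. Single genes could differ from their sum. Pecam1, an endothelial gene, was highest at E14.5 (4.81 to 14.4, against at most 0.852 at P10), while Egfl7 was at 97.1 to 145 at P10. The part of such cells in the replication values was not tested.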

How the data were processed

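The values are the deposited raw counts per gene symbol, which the authors made with bcl2fastq 2.18, STAR 2.7.8a and featureCounts 2.0.2, per the submitters' processing notes. Genome build, annotation, strand setting and the treatment of multi-mapped reads are not given in the sources used here, so counts of near-identical or overlapping genes are uncertain. Per the labels' protocols, cells were sorted into RNAprotect, RNA came from PicoPure columns, and a SMARTer low-input kit and Nextera XT gave cDNA and libraries. No molecular identifiers are named, so floors (3 counts) cover counting error only.

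All 15 libraries entered 1 edgeR 4.0.16 fit in R 4.3.3 (TMM scaling, filterByExpr by age with a minimum count of 10, robust quasi-likelihood tests, age as the only term). Benjamini-Hochberg adjustment ran over all genes tested. The F-test used the 12 libraries of E14.5 to P21. Changes are log2 values ± SE, as the size of the log2 change over the root of F. Alternatives used RLE or no scaling, other filters, fits of 2 ages, a replicate term, left-out libraries, a minimum log2 change of 1, limma voom (3.58.1) and DESeq2 (1.42.0). The fit was also run on simulated counts whose spread followed the mean level of a gene. Those counts held no uneven library such as P21 replicate 2, so that run cannot speak for such libraries.

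The 49 genes, the wider lists and the tests were chosen with earlier results of these data known. Values of every library are given for the 20 genes with the smallest F-test p and for any other gene called in a comparison of 2 ages. Genes of the wider lists are named where called, at most 4 per list with the smallest p, save 1 gene that is not reported here. The promoters printed are those of the 4 genes with the smallest F-test p.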

Additional observations from a re-analysis of the deposited data

How the results depend on the processing

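No called gene and no median of the 49 changed sign under any alternative or left-out library, but with no scaling factor the split of all genes called from E14.5 to P21 turned from more higher than lower to more lower (10.2% against 5.09%). With RLE scaling the counts of genes called were as reported. From E14.5 to P3 the count of 2 genes became 5 with no filter, 4 with a filter of 5 CPM in 3 libraries, 14 in a fit of these 2 ages alone, 8 with limma voom and 6 with DESeq2. The calls among all genes there were 330, 372, 681, 316 and 825, beside 57 lower and 245 higher in the main fit. From P3 to P10 the count of 2 became 4 with no filter and 9 with DESeq2. In those settings 116 and 334 of all genes were called, beside 9 lower and 50 higher in the main fit. From P21 to P56 the count of 3 became 5 with no filter, 0 in a fit of these 2 ages alone (47 genes tested), 1 with limma voom and 12 with DESeq2, while the calls among all genes went from 40 to 101, 3, 52 and 524. From P3 to P21 the count of 10 became 2 in a fit of these 2 ages alone, 15 with no scaling factor or with DESeq2, 14 with limma voom and 12 with no filter. In that order 321, 685, 1149, 690 and 500 of all genes were called, beside 138 lower and 396 higher in the main fit. From E14.5 to P21 the count of 28 became 34 with no scaling factor, 24 with no filter, 25 in a fit of these 2 ages alone, 41 with limma voom and 36 with DESeq2, and the F-test count of 25 became 33 with limma voom and 34 with DESeq2. For that span 2240, 1555, 1438, 2369 and 2782 of all genes were called, beside 642 lower and 1147 higher in the main fit. For the F-test 2165 and 3226 of all genes were called, beside 1759 in the main fit. With a required log2 change of at least 1, the counts were 9 from E14.5 to P21 and 0 in each of E14.5 to P3, P3 to P10, P3 to P21 and P21 to P56. In that order 354, 36, 1, 86 and 0 of all genes were called. The cause of these shifts was not tested. Leaving out each library in turn gave 0 to 3 genes from E14.5 to P3, 0 to 3 from P3 to P10, 0 to 0 from P10 to P21, 1 to 3 from P21 to P56, 21 to 35 from E14.5 to P21, 3 to 14 from P3 to P21 and 19 to 31 in the F-test. The replicate numbers did not pair the libraries: deviations of same-numbered libraries correlated between -0.054 and 0.063 in 18 pairs. With the replicate block the counts were 1 from E14.5 to P3, 3 from P3 to P10, 0 from P10 to P21, 35 from E14.5 to P21, 13 from P3 to P21 and 23 in the F-test. In that order 306, 76, 258, 1886, 597 and 1585 of all genes were called. The other measures of the largest step were chosen after seeing the data. With 3 libraries per age, a gene that was not called is not shown to be steady.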
